A study of Homo sapiens with 9 samples.

Results

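The genes described here are 10 components of the oxygen-sensing pathway: the hypoxia-inducible factor (HIF) subunits HIF1A, EPAS1, ARNT and ARNT2, the oxygen-dependent hydroxylases EGLN1, EGLN2, EGLN3 and HIF1AN, the ubiquitin ligase subunit VHL, and the HIF inhibitor CITED2. The rule lists them by name and uses no measured value, though it was drawn up with earlier results of these data known, and all 10 were found among the 17492 genes of the deposited table. RNA sequencing was done on HCCLM3, a metastatic human hepatocellular carcinoma cell line. Every library came from wild-type cells, in 3 groups of 3 libraries: cells given the solvent DMSO (control), cells given quercetin at 50 µM, and cells given quercetin at 100 µM. Quercetin is a plant flavonol. Treatment length and culture oxygen are not given in the sources used here.

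HIF is a transcription factor made of an oxygen-regulated alpha subunit (HIF1A, or EPAS1, also called HIF-2 alpha) and a stable beta subunit (ARNT or its relative ARNT2). While oxygen is present, the EGLN prolyl hydroxylases mark the alpha subunit, VHL binds the marked protein and a ubiquitin ligase destroys it, and the asparaginyl hydroxylase HIF1AN blocks its contact with the coactivators p300 and CBP. The hydroxylases need iron and 2-oxoglutarate besides oxygen, and EGLN1, EGLN3 and CITED2 are themselves known HIF targets, so the pathway contains negative feedback. Most of this control acts on protein, and RNA levels do not measure it.

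Each library held 20061136 to 21599805 counts. Over all genes, control replicate 1 stood apart from the other control libraries (mean squared difference of 27.6 and 27.4 times that of counting noise per gene, against 3.56 between the other pair). The library labelled 100 µM replicate 3 stood further apart from its group (83.9 and 86.1, against 5.04 between the other pair), while the 50 µM libraries differed by 4.24 to 4.75. Calls that turn on either library are therefore given with and without it. The labels do not say whether the libraries of a group came from separate cultures, so each p-value measures only the spread between these libraries, which may be technical. Keratin and liver-factor markers were present (KRT8 at 2563 to 3653 CPM, counts scaled to library size, and HNF4A at 21.2 to 44.1), ALB ranged from 0.798 to 15.7 CPM, and APOA1 did not exceed 0.199 CPM. TTR did not exceed 0.574 CPM and SERPINA1 1.25 CPM, while FGB ranged from 4.53 to 100 CPM and TF from 16.6 to 195 CPM. Of the 12 liver markers tested by edgeR, 4 were higher and 3 lower at 50 µM against control, beside 5.28% and 6.31% of all genes. At 100 µM against control 5 were higher and 1 lower, beside 10.7% and 10.3%. The summed endothelial markers (4 genes, mostly PECAM1, with CDH5 at 0 to 2.39 CPM) lay at 36.6 to 41.9 CPM in control, 20.2 to 22.8 CPM at 50 µM and 20.9 to 26.1 CPM at 100 µM. The summed leukocyte markers (4 genes, mostly CD68, with CD3E at 0 to 0.0472 CPM and PTPRC at 0.373 to 1.06 CPM) lay at 143 to 195 CPM in control, 130.3 to 144 CPM at 50 µM and 209 to 295 CPM at 100 µM. Of the 2 leukocyte markers tested by edgeR, 1 was higher at 100 µM against control and against 50 µM. The summed fibroblast markers (7 genes, mostly LUM, with COL1A2 at 0 to 0.144 CPM) lay at 75.3 to 113 CPM in control, 85.7 to 98.4 CPM at 50 µM and 85.9 to 149.97 CPM at 100 µM, and of the 2 tested, 1 was lower at 50 µM against control and 1 higher at 100 µM against 50 µM. The part of any marker list in any result was not tested.

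Among the 9 members that passed the filter on low counts, CITED2 had the largest fold change: it averaged 103 ± 3.73 TPM (level scaled for transcript length and depth) at 100 µM against 35.9 ± 2.70 TPM in control (SD, n = 3 each), a 3.02-fold rise. HIF1A fell 1.64-fold at 100 µM, and EGLN1 and ARNT2 rose 1.36-fold and 1.39-fold. EPAS1, ARNT, EGLN2, VHL and HIF1AN did not pass the test in any of the 3 comparisons. EGLN3 was nearly silent, with 0 to 38 counts per library, and did not pass that filter. Its summed counts, scaled to depth, were 17.0 times those of control at 100 µM (52 against 3 counts). Without 100 µM replicate 3 this ratio was 6.82 (14 against 3 counts). Of the 9 members tested at 100 µM against control, 4 passed (3 higher and 1 lower) by edgeR's quasi-likelihood test at a Benjamini-Hochberg adjusted p under 0.05, where 21% of all 12832 genes tested passed (10.7% higher and 10.3% lower). At 50 µM against control 1 of 9 passed, CITED2, against a background of 11.6% (5.28% higher and 6.31% lower). At 100 µM against 50 µM 1 of 9 passed, again CITED2, against 4.15% (2.25% higher and 1.89% lower). At 100 µM against control, 1 or 2 members passed without control replicate 2 or 3 or without 100 µM replicate 1 or 2, and at 50 µM none did without control replicate 2 or 3 or any one 50 µM library (edgeR; 2 at an unadjusted p under 0.05 in each of these refits). The calls over all genes moved as widely in the refits without 1 library. They numbered 1090 to 3888 at 100 µM against control and 88 to 4773 at 50 µM against control. Without both libraries that stand apart, 6 members passed at 100 µM against control (5 higher and 1 lower), 6 at 50 µM against control (3 and 3) and 7 between doses (6 and 1), where 6244, 7377 and 6104 of all genes passed. The comparisons with control share the control libraries and are not independent of each other. As the RNA came from whole cultures, fewer expressing cells and less RNA per cell cannot be told apart.

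**Figure D1:**
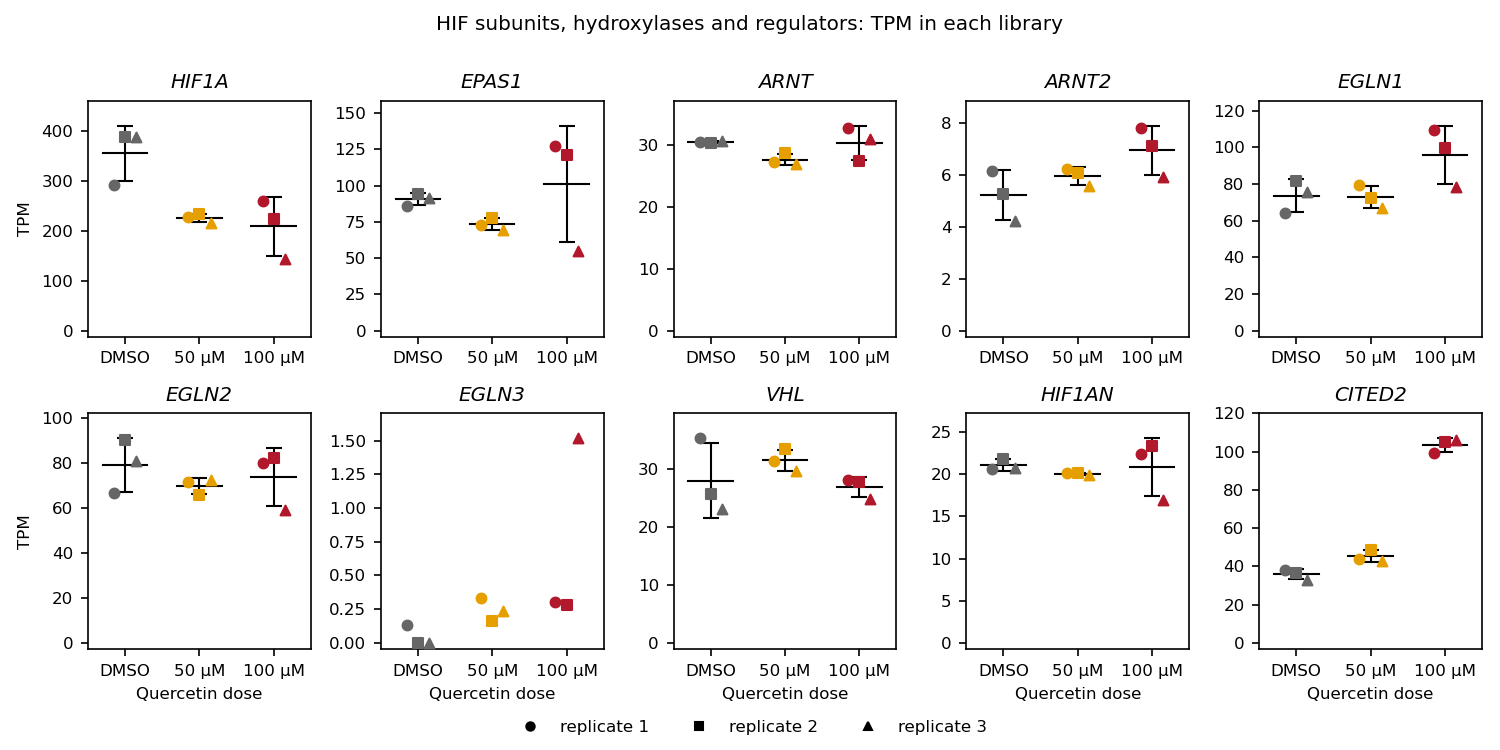
TPM of each of the 10 genes (y axis, linear, with 0 shown) in each library (points, shaped by replicate number) at each quercetin dose (x axis); horizontal lines are group means and bars are ± SD of 3 libraries, left out for EGLN3. The 3 CITED2 points at 100 µM lie above every other library, all 6 quercetin-treated HIF1A points lie below the lowest control point, and the 100 µM triangle (replicate 3) is the lowest EPAS1 and the highest EGLN3 value.

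**Figure D2:**
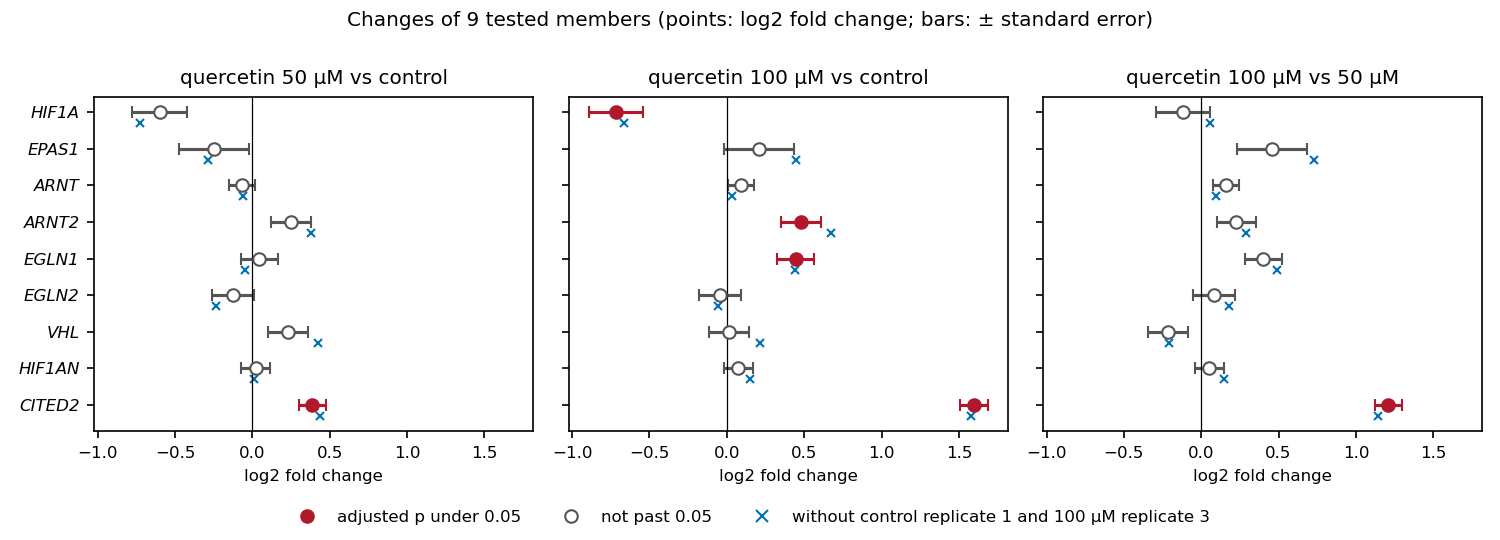
Log2 fold changes of the 9 tested genes (x axis) in the 3 comparisons, with bars of ± 1 standard error from the fit over 9 libraries; filled red points passed an adjusted p of 0.05 and blue crosses are refits without control replicate 1 and 100 µM replicate 3. Only CITED2 is filled in all 3 panels, and the crosses for EPAS1 lie to the right of its points in both panels that involve 100 µM.

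The 250 bases upstream of the RefSeq gene starts (assembly GRCh38.p14) were searched for the core of the hypoxia response element, the short DNA word HIF binds, spelled ACGTG or GCGTG, on both strands. The palindrome CACGTG holds ACGTG on both strands, so its matches overlap. Windows were found for 8 members (12 windows, since some genes have several starts), and 7 of the 12 held a core, beside 43.2% of all 35116 windows. Both words contain CG, and these 7 windows were 60.0 to 81.2% G and C, against a median of 58% over all windows. The shares were not corrected for this. A core was found for CITED2 in all 3 of its windows, for HIF1A and EGLN2 in 1 of their 2 windows each, and for EGLN1 and EPAS1 in their single window; the windows of ARNT, HIF1AN and EGLN3 held none. Such a match describes the letters only. A full window of CITED2 and of HIF1A is shown because, among the 9 members tested, these had the largest fold changes at 100 µM, in opposite directions. For each gene it is the window with the most matches. Each reads 5′ to 3′ on the gene's own strand and capitals mark the core. The CITED2 window is chr6:139374649-139374898 (minus strand), with CACGTG 153 to 148 bases before the start. The bases just after this start were not found in any GENCODE transcript of CITED2. Those after its other starts were found, and the windows of these starts hold GCGTG only. The HIF1A window is chr14:61695263-61695512 (plus strand), with GCGTG 204 to 200 bases before the start.
CITED2: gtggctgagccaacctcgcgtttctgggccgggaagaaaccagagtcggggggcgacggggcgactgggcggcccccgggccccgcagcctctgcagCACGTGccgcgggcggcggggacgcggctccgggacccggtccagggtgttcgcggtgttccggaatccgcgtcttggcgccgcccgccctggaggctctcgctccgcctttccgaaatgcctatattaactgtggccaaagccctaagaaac
HIF1A: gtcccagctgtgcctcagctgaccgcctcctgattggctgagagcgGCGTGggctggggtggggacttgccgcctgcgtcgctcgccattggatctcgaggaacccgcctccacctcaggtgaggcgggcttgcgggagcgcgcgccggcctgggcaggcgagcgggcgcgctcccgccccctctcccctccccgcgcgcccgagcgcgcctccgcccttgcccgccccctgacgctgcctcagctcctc

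For the other members with a core, the stretch around it is given, since EGLN1 rose at 100 µM while EPAS1 and EGLN2 did not pass the test. The core of the EGLN1 stretch (chr1:231422288-231422310, minus strand) lies 13 to 9 bases before the RefSeq start. The deposited table gives EGLN1 the bounds 231363756 to 231422332, and by these the stretch lies inside the gene. The EPAS1 stretch is chr2:46297280-46297304 (plus strand), with its core 117 to 113 bases before the start. The EGLN2 stretch is chr19:40799132-40799156 (plus strand), with its core 49 to 44 bases before the start.
EGLN1: gccgtggtgtACGTGcagagcgc
EPAS1: gcctgccggcGCGTGcccgcccaca
EGLN2: ggggcgcggtCACGTGcccaccggg

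HIF1A encodes the alpha subunit best known for driving glycolytic genes in hypoxia (gene ID 3091, chromosome 14, 61695513 to 61776260, GRCh38 as in the deposited table). Its level was 291, 388 and 388 TPM in the control libraries, 229, 233 and 216 TPM at 50 µM, and 259, 223 and 144 TPM at 100 µM. Control replicate 1 was the lowest control and 100 µM replicate 3 the lowest of all, yet no quercetin library reached the lowest control. HIF1A fell at 100 µM, with a log2 fold change against control of -0.72 ± 0.176 (SE, edgeR adjusted p = 0.0201). It lay below every control in 3 of 3 libraries, and 35.9% of all genes likewise did not overlap in CPM at 100 µM. At 50 µM the log2 fold change was -0.60 ± 0.176 and missed the threshold (edgeR adjusted p = 0.0544), although the groups did not overlap there, which was the case for 49% of all genes in CPM at 50 µM. No difference passed between the doses (log2 fold change -0.12, 95% interval -0.51 to 0.28, edgeR adjusted p = 0.753). Without 100 µM replicate 3 the 50 µM difference passed in edgeR (adjusted p = 0.00310), as it did without control replicate 1 (log2 fold change -0.73, adjusted p = 0.0202). The 100 µM difference missed the threshold without control replicate 2 (edgeR adjusted p = 0.0832) or control replicate 3 (0.0822), and when only the compared groups were fitted (0.0797). The authors' deposited table gives HIF1A a q-value of 0.0136 at 100 µM and 6.85e-06 at 50 µM. Exons of HIF1A overlap the antisense gene HIF1A-AS1, and whether reads were counted by strand is unknown here.

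EPAS1, the second alpha subunit, is known for endothelial expression and for control of erythropoietin and iron genes (gene ID 2034, chromosome 2, 46297407 to 46386697). It had 86.2, 94.5 and 91.4 TPM in control, 73.1, 77.9 and 69.4 TPM at 50 µM, and 127, 121 and 55.1 TPM at 100 µM. The 50 µM libraries all lay below control, in a comparison where 49% of all genes did not overlap in CPM. The 100 µM group held both the highest values and the lowest one, its replicate 3. Neither 50 µM (log2 fold change -0.25 ± 0.227, edgeR adjusted p = 0.465) nor 100 µM (0.21 ± 0.227, adjusted p = 0.536, 95% interval -0.30 to 0.72) passed against control. One library decided the result at 100 µM. Without 100 µM replicate 3, EPAS1 rose there (log2 fold change 0.49, edgeR adjusted p = 0.000627 against control and 0.73, adjusted p = 0.000147 against 50 µM). At 50 µM against control that library enters only through the shared spread: without it the log2 fold change stayed at -0.25 and passed (edgeR adjusted p = 0.0126). The fall at 50 µM also passed when only the compared groups were fitted (edgeR adjusted p = 0.0232), and passed in 3 of 16 alternatives in all. The authors' deposited table gives EPAS1 a q-value of 0.00909 at 50 µM and 0.769 at 100 µM against control.

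The EPAS1 to HIF1A ratio in TPM differed between all 3 groups without overlap. It was 0.296, 0.244 and 0.236 in control, 0.320, 0.334 and 0.321 at 50 µM, and 0.492, 0.543 and 0.382 at 100 µM, so that 100 µM replicate 3 was the lowest of its group but still above every 50 µM library. The group means were 0.259 ± 0.0327, 0.325 ± 0.00811 and 0.472 ± 0.0824 (SD, n = 3 each). The summed TPM of both alpha subunits was 446 ± 59.6 in control, 299.6 ± 12.9 at 50 µM and 310.2 ± 98.4 at 100 µM. These proportions are a description and were not tested, and how often other gene pairs separate in this way was not counted.

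**Figure D3:**
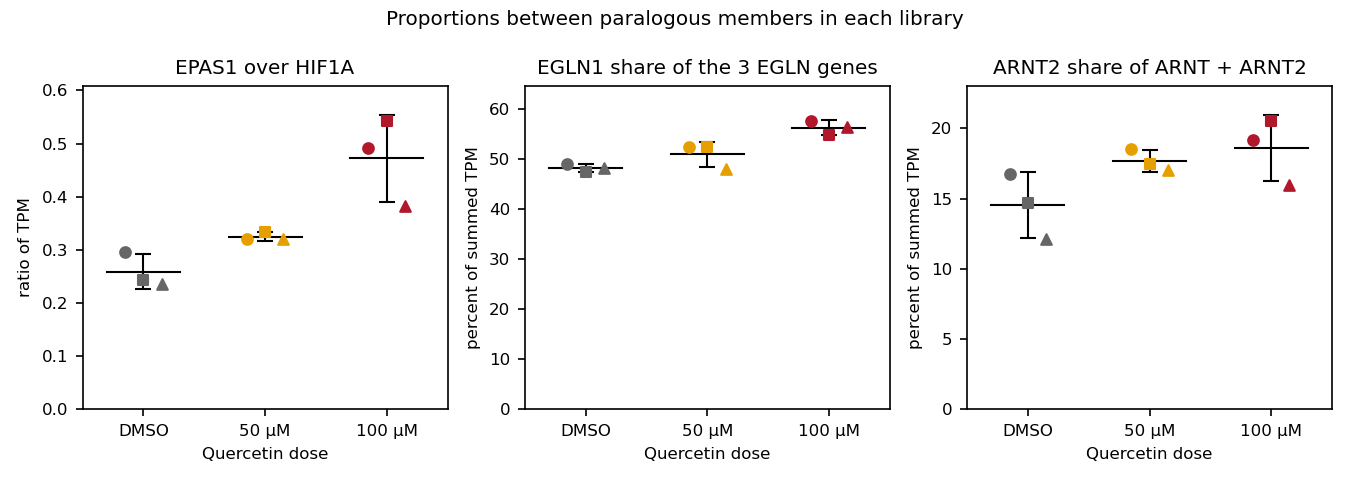
Proportions between related genes in each library (points, shaped by replicate as circle, square and triangle for 1, 2 and 3; lines and bars are mean ± SD of 3 libraries) at each dose: EPAS1 over HIF1A, the percent of summed EGLN TPM that was EGLN1, and the percent of ARNT plus ARNT2 that was ARNT2. The ratio of EPAS1 to HIF1A has no overlap between doses, the EGLN1 share at 100 µM lies above every other library, and the ARNT2 share at 100 µM overlaps control.

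ARNT, the common beta subunit that also partners the dioxin receptor AHR (gene ID 405, chromosome 1, 150809713 to 150876737), was the steadiest member in control, at 30.5, 30.5 and 30.7 TPM. It had 27.4, 28.7 and 27.0 TPM at 50 µM and 32.9, 27.4 and 31.1 TPM at 100 µM. The 50 µM values lay a little below control, in a comparison where 49% of all genes did not overlap in CPM. The 100 µM values lay on both sides of control. The log2 fold change was -0.066 ± 0.0846 at 50 µM (edgeR adjusted p = 0.606) and 0.092 ± 0.0845 at 100 µM (edgeR adjusted p = 0.458).

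ARNT2, a beta subunit best known from the brain whose exons overlap antisense transcripts (gene ID 9915, chromosome 15, 80404382 to 80597933), was far lower than ARNT per transcript. Its TPM was 6.15, 5.25 and 4.23 in control, 6.23, 6.08 and 5.55 at 50 µM, and 7.80, 7.10 and 5.92 at 100 µM. In TPM the lowest 100 µM library lay under the highest control one, while in CPM scaled by TMM factors the groups were apart (23.6, 22.2 and 20.0 at 100 µM, against 18.3, 15.9 and 13.1 in control), as were 35.9% of all genes. At 100 µM against control its log2 fold change was 0.48 ± 0.129 (edgeR adjusted p = 0.0283), and at 50 µM 0.25 ± 0.129 (adjusted p = 0.207). In the authors' deposited table the q-value of ARNT2 at 100 µM was 0.0667, which is not under 0.05. The call at 100 µM was lost in edgeR when control replicate 2 (adjusted p = 0.0844) or 3 (0.0989), or 100 µM replicate 1 (0.0745) or 2 (0.0632), was left out. It was also lost when TPM was tested with limma (adjusted p = 0.0953) and when only the compared groups were fitted (edgeR adjusted p = 0.0896). With both outlying libraries left out, ARNT2 also passed at 50 µM against control (log2 fold change 0.38, edgeR adjusted p = 0.00131) and between doses (0.29, 0.00899). ARNT2 made up 14.5 ± 2.33% of the summed ARNT and ARNT2 TPM in control, 17.7 ± 0.771% at 50 µM and 18.6 ± 2.35% at 100 µM (SD, n = 3 each).

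EGLN1, also called PHD2, is the main prolyl hydroxylase that sets HIF1A stability in most cells (gene ID 54583, chromosome 1, 231363756 to 231422332). The control libraries had 64.1, 81.6 and 75.6 TPM, the 50 µM libraries 79.4, 72.2 and 67.1 TPM, and the 100 µM libraries 109.7, 99.9 and 78.5 TPM. In TPM the 50 µM group lay within the range of control, and 100 µM replicate 3 was the one library of its group inside that range. In CPM scaled by TMM factors the 100 µM libraries (219, 206 and 175) all lay above control (126, 162 and 154). Such a separation held for 35.9% of all genes. The 50 µM libraries had 165, 147 and 142 CPM, with replicate 1 above every control. Its log2 fold change was 0.44 ± 0.120 at 100 µM against control (edgeR adjusted p = 0.0285) and 0.044 ± 0.119 at 50 µM (95% interval -0.22 to 0.31, adjusted p = 0.819). Against 50 µM, the 100 µM libraries differed by 0.40 ± 0.119, which missed the threshold (edgeR adjusted p = 0.0887), and passed it without 100 µM replicate 3 (0.49, adjusted p = 0.00719). With all libraries kept, this difference passed in DESeq2 (adjusted p = 0.0347). The authors' deposited q-values for EGLN1 were 0.0390 between doses and 0.0410 at 100 µM against control. The edgeR call against control was lost when control replicate 1 (adjusted p = 0.0532) or 3 (0.0743), or 100 µM replicate 1 (0.0767) or 2 (0.0689), was left out, when TPM was tested with limma (0.0832), and when only the compared groups were fitted (0.0825).

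EGLN2, or PHD1 (gene ID 112398, chromosome 19, 40799191 to 40808434), was about as abundant as EGLN1 in control, at 66.4, 90.1 and 80.8 TPM. It had 71.4, 65.5 and 72.4 TPM at 50 µM and 79.9, 82.2 and 58.9 TPM at 100 µM, with the groups overlapping throughout. Its log2 fold change was -0.13 at 50 µM (95% interval -0.43 to 0.18, edgeR adjusted p = 0.542) and -0.045 at 100 µM (-0.35 to 0.26, adjusted p = 0.838). With both outlying libraries left out, EGLN2 was lower at 50 µM against control (log2 fold change -0.24, edgeR adjusted p = 0.00348) and higher at 100 µM against 50 µM (0.18, 0.0266). EGLN2 shares exons with the read-through gene RAB4B-EGLN2, so part of its count may belong to that transcript. Within the summed TPM of the 3 EGLN genes, EGLN1 made up 49.1, 47.5 and 48.3% in control, 52.6, 52.4 and 48.0% at 50 µM, and 57.8, 54.8 and 56.5% at 100 µM. All 3 libraries at 100 µM, replicate 3 included, lay above the other 6 in this share.

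EGLN3, or PHD3, is the prolyl hydroxylase usually most inducible by hypoxia (gene ID 112399, chromosome 14, 33924227 to 33951074). It was counted 3, 0 and 0 times in the control libraries, 8, 4 and 6 times at 50 µM, and 7, 7 and 38 times at 100 µM. Its TPM was 0.13, 0 and 0 in control, 0.33, 0.16 and 0.24 at 50 µM, and 0.30, 0.28 and 1.52 at 100 µM. Every quercetin library held more counts than any control library, but the lowest of them held 4 and the highest control 3. Among the tested genes, which leave out EGLN3, 49% did not overlap in CPM at 50 µM against control and 35.9% at 100 µM. Most of the 100 µM counts came from replicate 3. The ratio of the summed counts, scaled to depth, was 17.0 at 100 µM against control (52 against 3 counts, exact 95% Poisson interval 5.52 to 85.3) and 5.94 at 50 µM (18 against 3 counts, 1.73 to 31.5). Without 100 µM replicate 3 it was 6.82 against control (14 against 3 counts, 1.90 to 37.0) and 1.15 against 50 µM (14 against 18 counts, 0.528 to 2.44). These intervals cover counting error only. With no filter on low counts, edgeR gave an adjusted p of 0.0309 at 100 µM against control and 0.237 at 50 µM. EGLN3 stayed the rarest member at every dose, at 0.154 to 1.10% of the summed EGLN TPM at 100 µM.

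HIF1AN, also called FIH, is the asparaginyl hydroxylase that restrains the transactivation domain (gene ID 55662, chromosome 10, 100535921 to 100562377). Its level was 20.6, 21.9 and 20.7 TPM in control, 20.1, 20.1 and 19.9 TPM at 50 µM, and 22.4, 23.3 and 16.9 TPM at 100 µM. The 100 µM replicate 3 was the lowest of all 9 libraries and the other pair at 100 µM the highest. The log2 fold change was 0.021 at 50 µM (95% interval -0.19 to 0.23, edgeR adjusted p = 0.893) and 0.073 at 100 µM (-0.14 to 0.28, adjusted p = 0.608). With both outlying libraries left out it passed between doses (log2 fold change 0.15, edgeR adjusted p = 0.0483). Its exons overlap those of NDUFB8 on the opposite strand, so reads of the pair may have been mixed.

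VHL, the substrate receptor of the ligase and a tumour suppressor of kidney cancer (gene ID 7428, chromosome 3, 10141778 to 10153667), had 35.3, 25.6 and 23.0 TPM in control, 31.3, 33.3 and 29.7 TPM at 50 µM, and 28.0, 27.7 and 24.8 TPM at 100 µM. Control replicate 1 was the highest of all 9 libraries, so the control range spanned both quercetin groups. The log2 fold change was 0.23 at 50 µM (95% interval -0.060 to 0.52, edgeR adjusted p = 0.248) and 0.012 at 100 µM (-0.28 to 0.30, adjusted p = 0.956). Without control replicate 1 the 50 µM value was 0.42 and passed (edgeR adjusted p = 0.00933). With control replicate 1 and 100 µM replicate 3 both left out, VHL also passed at 100 µM against control (0.22, edgeR adjusted p = 0.0129) and between doses (-0.21, 0.00791).

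CITED2 competes with HIF alpha for the same domain of p300 and CBP and is induced by HIF (gene ID 10370, chromosome 6, 139370027 to 139374648). It had 38.4, 36.4 and 33.0 TPM in control, 43.9, 48.8 and 42.9 TPM at 50 µM, and 99.2, 105 and 106 TPM at 100 µM. The 3 groups did not overlap, in TPM or in CPM. In CPM this was so for 49% of all genes at 50 µM against control, 35.9% at 100 µM against control and 27.7% between doses. Both libraries that stood apart over all genes lay close to the rest of their groups here. At 100 µM its log2 fold change was 1.60 ± 0.0894 against control (edgeR adjusted p = 2.43e-05) and 1.21 ± 0.0882 against 50 µM, a 2.31-fold difference (edgeR adjusted p = 0.000355). Both calls held in each of the 16 alternative analyses, with log2 fold changes of 1.50 to 1.66 against control and 1.14 to 1.27 against 50 µM. At 50 µM against control it rose 1.31-fold (log2 fold change 0.39 ± 0.0883, edgeR adjusted p = 0.0251). That call was lost in edgeR when control replicate 2 (adjusted p = 0.0998) or 3 (0.120), or any 50 µM library (0.0828 to 0.0923), was left out.

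**Figure D4:**
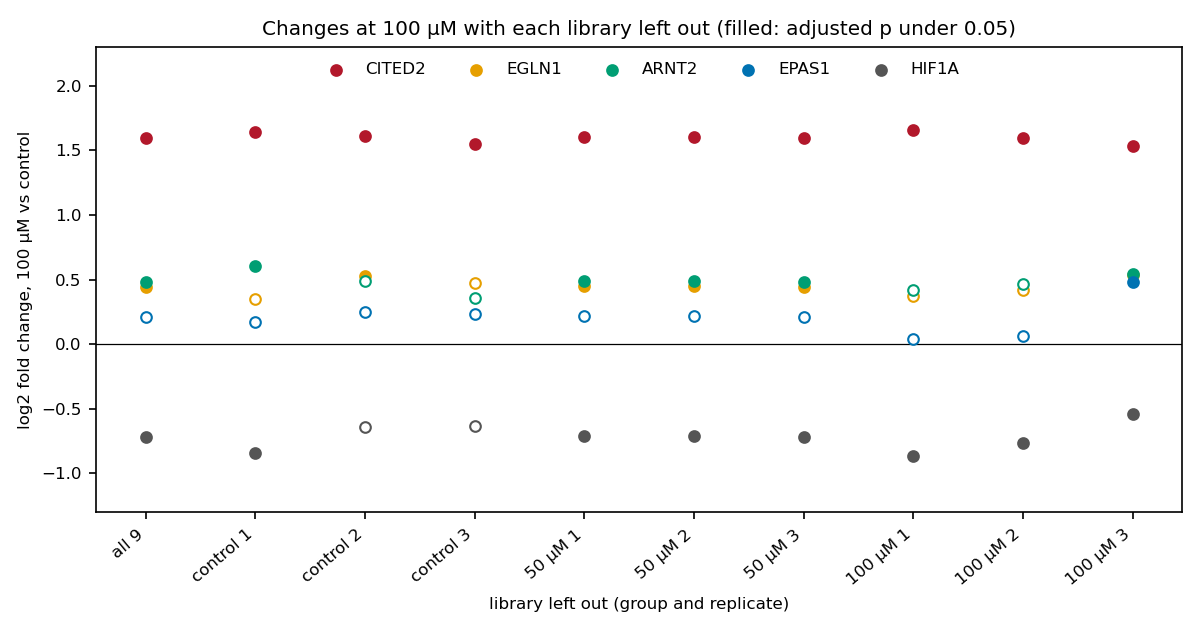
Log2 fold change at 100 µM against control (y axis) of 5 genes in the fit over all 9 libraries and with each library left out in turn (x axis); filled points passed an edgeR adjusted p of 0.05. CITED2 stays filled between 1.53 and 1.66, EPAS1 is filled only without 100 µM replicate 3, at 0.49, and HIF1A is open without control replicate 2 or 3.

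By TPM, which corrects for transcript length, the order of members in control was HIF1A, EPAS1, EGLN2, EGLN1, CITED2, ARNT, VHL, HIF1AN, ARNT2 and EGLN3. The ranges of EPAS1, EGLN2 and EGLN1 overlapped from each to the next, as did those of ARNT and VHL; the other neighbours did not overlap. HIF1A led at every dose. At 50 µM CITED2 was again the fifth, and VHL stood above ARNT without overlap. At 100 µM CITED2 stood at rank 2, its range overlapping that of EPAS1, with EGLN1 and EGLN2 next and overlapping in turn.

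Across the 9 libraries, the genes whose centred log2 CPM profile came closest to that of EGLN1 among 10469 searched were YEATS2, FOSL2, LIMS1, MAP2K1 and FAM219A, with root mean square differences of 0.0559 to 0.0810. EGLN1's own root mean square deviation from its mean was 0.239. For CITED2, whose own deviation was 0.682, they were LRP1, SRD5A3, PFKFB4, RNASET2 and APOL1, with differences of 0.132 to 0.157. Of these, PFKFB4, a regulator of glycolysis, is also among the HIF targets listed for this work. EGLN3 was too low for this measure.

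HIF target genes, a list of 49 chosen with earlier results of these data known, were mostly higher at 100 µM. Of the 46 that passed the filter, 33 rose and 0 fell by edgeR at 100 µM against control (DESeq2 found 35 and 0; at an unadjusted edgeR p under 0.05 the counts were 38 and 1), beside the 10.7% and 10.3% of all genes. The list's median log2 fold change was 1.04, against 0.00087 for all genes tested. NDUFA4L2, a mitochondrial protein, rose 61.2-fold and CA9, a surface carbonic anhydrase, 55.5-fold (edgeR adjusted p = 0.00258 and 0.00121), and the binding protein IGFBP3 and the lipase inhibitor ANGPTL4 rose 19.8-fold and 8.79-fold (0.00567 and 0.00154). Without 100 µM replicate 3 these rises were 24.3, 29.5, 6.23 and 5.30-fold, and without control replicate 1 those of NDUFA4L2 and CA9 were 157 and 135-fold. Without both libraries 39 of the listed targets rose and 1 fell, in a refit where 6244 of all 12832 genes passed.

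At 50 µM against control 13 of the 46 targets rose and 0 fell by edgeR (DESeq2 found 17 and 1; at an unadjusted edgeR p under 0.05 the counts were 19 and 5), beside 5.28% and 6.31% of all genes, with a median of 0.31 against 0.0033 for all genes. Only 2 or 3 targets passed without control replicate 2 or 3 or any one 50 µM library, and 31 passed without 100 µM replicate 3. Over the 9 refits without 1 library, 88 to 4773 of all genes passed. Without both libraries that stand apart 27 targets rose and 9 fell, where 7377 of all genes passed. CA9 rose 11.4-fold (edgeR adjusted p = 0.0180; 27.9-fold without control replicate 1), the iron carrier gene TF 5.25-fold (0.00442), the aldolase ALDOC 2.66-fold (0.0223) and NDRG1, a gene of the stress response, 1.91-fold (0.00509). The calls of CA9 and ALDOC were lost without control replicate 2 or 3 or any one 50 µM library; those of NDRG1 and of TF, which is also a hepatocyte marker, were kept without each of the 9. Between 100 and 50 µM, 25 targets were higher and 0 lower by edgeR (33 and 0 by DESeq2; 37 and 0 at an unadjusted edgeR p under 0.05), beside 2.25% and 1.89% of all genes, with a median of 0.695 against 0.012. This count was 7 without any one 50 µM library, 16 or 17 without control replicate 2 or 3 or 100 µM replicate 2, and 38 without 100 µM replicate 3. The 9 refits without 1 library gave 43 to 3559 calls over all genes between doses. Without both libraries that stand apart 41 targets were higher and 1 lower, where 6104 of all genes passed. AK4, an adenylate kinase of mitochondria, was 4.03-fold higher (edgeR adjusted p = 0.000422) and its call was kept without each library in turn. IGFBP3, NDUFA4L2 and ANGPTL4 were 11.2, 10.4 and 6.05-fold higher (edgeR adjusted p = 0.0348, 0.0390 and 0.0120), and 3.52, 4.14 and 3.65-fold higher without 100 µM replicate 3. All 3 calls were lost without any one 50 µM library, and those of IGFBP3 and NDUFA4L2 also without control replicate 2 or 3.

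**Figure D5:**
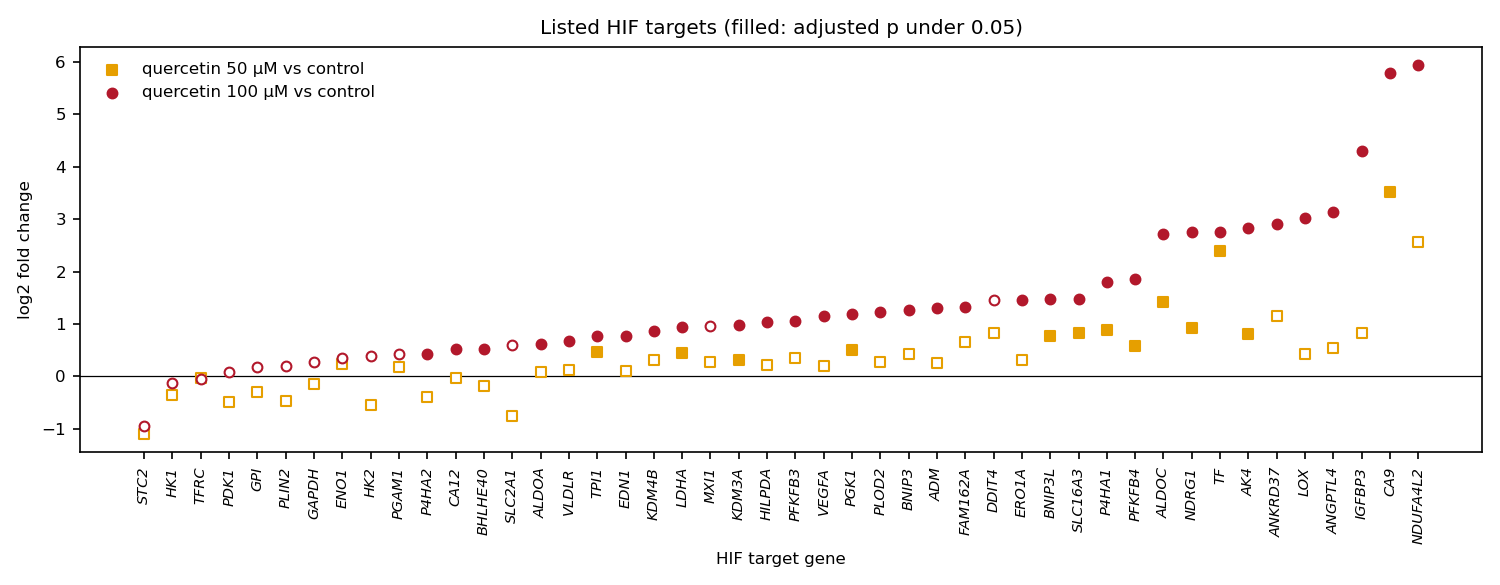
Log2 fold change (y axis) of the 46 tested genes of the HIF target list (x axis, ordered by their value at 100 µM) for 50 µM against control (squares) and 100 µM against control (circles), filled where the edgeR adjusted p was under 0.05. At 100 µM 33 circles are filled, all above 0; at 50 µM 13 squares are filled, also all above 0.

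Among 14 proteins that act on HIF alpha stability, VHL's ligase partners included, 2 rose and 4 fell at 100 µM against control by edgeR, beside 10.7% and 10.3% of all genes, with a median log2 fold change of 0.0044 against 0.00087 for all genes. OS9, which binds HIF1A and EGLN proteins, rose 1.49-fold (281 ± 20.8 against 188 ± 6.93 CPM, edgeR adjusted p = 0.00150), and SIAH1, a ubiquitin ligase that targets EGLN proteins, rose 1.46-fold (68.6 ± 5.97 against 47.1 ± 5.75 CPM, 0.00726). SENP1, which removes SUMO from HIF1A, fell 1.36-fold (43.5 ± 4.19 against 59.0 ± 0.379 CPM, edgeR adjusted p = 0.00739). These 3 calls held without each library in turn. The chaperone genes HSP90AA1 and HSP90AB1 also fell at 100 µM (log2 fold change -0.35 and edgeR adjusted p = 0.0240 for each). Their calls were kept in 5 and 4 of the 9 refits that left out a library. CUL2, the scaffold of the VHL ligase, had 75.1 ± 0.252 CPM against 89.3 ± 5.36 CPM and fell (edgeR adjusted p = 0.0421), a call kept in 2 of the 9 refits that left out a library. Its adaptors ELOB and ELOC had log2 fold changes of 0.059 and 0.086 and did not pass. At 50 µM, 2 of the 14 rose (SIAH1, 1.39-fold, and NEDD8, the ligase activator, 1.33-fold) and 1 fell (HSP90AB1, a chaperone that stabilises HIF1A, 1.28-fold), beside 5.28% and 6.31% of all genes, and each of these was lost without control replicate 2 or 3 or any one 50 µM library, that of HSP90AB1 also without 100 µM replicate 2. Between the doses OS9 passed alone, 1.40-fold higher at 100 µM (edgeR adjusted p = 0.0122), a call lost without any one 50 µM library.

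Of 8 coactivators and CITED relatives, 7 could be tested. None passed at 100 µM against control by edgeR (0 higher and 0 lower, with 0 and 4 at an unadjusted p under 0.05), beside 10.7% and 10.3% of all genes. The coactivator NCOA1 alone fell at 50 µM (1.61-fold lower, 8.49 ± 0.621 against 13.6 ± 0.654 CPM, edgeR adjusted p = 0.0242), where 5.28% of all genes rose and 6.31% fell. Its call was lost without control replicate 2 or 3 or any one 50 µM library. With 7 genes tested, these counts are not a result about the list. EP300 and CREBBP, which encode the p300 and CBP that CITED2 and HIF alpha compete for, had log2 fold changes of 0.14 and 0.034 at 100 µM, each with a standard error larger than the change (edgeR adjusted p = 0.610 and 0.934). CITED4, the relative that also binds p300, had 4.67 ± 0.425 CPM at 100 µM against 6.09 ± 0.738 CPM in control and did not pass (edgeR adjusted p = 0.134).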

How the data were processed

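RNA of 9 libraries was sequenced. Per the submitters' processing notes, HISAT2 2.0.4, Bowtie2 2.2.5 and RSEM 1.2.12 were used with GRCh38.p13; their parameters and the strand setting are not stated. The deposited table holds, per the file headers, the authors' estimated counts and TPM per library, and their own log2 fold changes and q-values per comparison; 18 further per-library columns were not used. Counts were rounded to whole numbers, genes with low counts were removed (filterByExpr, minimum 10 per library and 15 in all), which left 12832 of 17492, and edgeR 4.0.16 in R 4.3.3 fitted TMM-scaled counts of all 9 libraries by the robust quasi-likelihood method (two-sided, Benjamini-Hochberg over all genes tested). The script was tested on simulated data. Members and lists were chosen with earlier results of these data known, and 1 gene of the planned HIF target list and 1 planned marker are not reported here. The text names all 10 members, up to 4 HIF targets and up to 3 genes of each other list per comparison (passing genes of at least 5 CPM with the largest change), and the 5 genes closest in profile to EGLN1 and CITED2; CUL2, ELOB, ELOC, EP300, CREBBP and CITED4 were added after their values were seen. Alternatives were RLE scaling, no filter, DESeq2 1.42.0, limma 3.58.1 on log2(TPM + 1), fits of the compared groups alone, a replicate block, each library left out in turn, and both libraries that stand apart left out. Promoter sequences are RefSeq's.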

Additional observations from a re-analysis of the deposited data

How the results depend on the processing

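RLE scaling and testing without a filter changed no count of calls by over 1.5 times. With DESeq2 the calls were 2531 of all genes and 2 members at 50 µM against control, and 1352 and 2 at 100 against 50 µM. Fitting the compared groups alone gave 4242 genes, 3 members and 28 targets at 50 µM against control, 992 genes and 1 member at 100 µM against control, and 251 genes between doses. Limma on TPM gave 2 members at 100 µM against control and a split of 989 higher and 1657 lower genes, against 1370 and 1322 in edgeR. Without control replicate 1 and 100 µM replicate 3 the calls were 7377 genes, 6 members and 36 targets at 50 µM against control, 6244 genes at 100 µM against control, and 6104 genes, 7 members and 42 targets between doses. Leaving out each library in turn gave, at 50 µM against control, 88 to 4773 genes, 0 to 3 members and 2 to 31 targets; at 100 µM against control, 1090 to 3888 genes, 1 to 5 members and 29 to 37 targets; and between doses, 43 to 3559 genes, 1 to 3 members and 7 to 38 targets.

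Same-numbered libraries did not deviate together (correlations of -0.464 to 0.276). The deviations are from means of 3 libraries and are largest in the 2 that stand apart, which have different numbers (correlation 0.533). This check therefore cannot tell whether the numbers mark a shared culture or day. A replicate block gave 427 genes, 0 members (edgeR, with 3 at an unadjusted p under 0.05, and 2 by DESeq2 without the block) and 8 targets at 50 µM against control. It gave 1672 genes at 100 µM against control, and 109 genes and 11 targets between doses. Under the block CITED2 at 50 µM (edgeR adjusted p = 0.0700) and EGLN1 at 100 µM (0.0649) missed the threshold.

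Signs turned only for members that had not passed, and none passed afterwards. Limma on TPM gave log2 fold changes of -0.0127 for EGLN1 and -0.0672 for HIF1AN at 50 µM against control, and -0.00790 for ARNT, -0.0346 for VHL and -0.0254 for HIF1AN at 100 µM against control. Without both libraries that stand apart EGLN1 had -0.0461 at 50 µM against control and HIF1A 0.0590 between doses. With each library left out in turn, EGLN1 ranged from -0.0514 to 0.125 at 50 µM against control. At 100 µM against control EGLN2 ranged from -0.159 to 0.0655, VHL from -0.0973 to 0.206 and HIF1AN from -0.00832 to 0.169. Between doses HIF1A ranged from -0.267 to 0.0630 and HIF1AN from -0.0292 to 0.149. The cause was not tested.

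With 3 libraries a group, precision was limited: a typical gene had a log2 standard error of 0.134 (the median). HIF1A, ARNT2 and EGLN1 at 100 µM against control passed in 13, 10 and 9 of 16 alternatives.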

Other observations

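Other genes that share a domain or a metabolite with the oxygen sensors were also counted. Of 12 relatives of the HIF subunits in the bHLH-PAS family, 8 were tested, and the same 2, both circadian activators, fell at each dose by edgeR, beside 6.31% of all genes at 50 µM and 10.3% at 100 µM. NPAS2 averaged 101 ± 23.1 CPM in control, 49.3 ± 2.15 CPM at 50 µM (2.04-fold lower, edgeR adjusted p = 0.0217) and 60.2 ± 17.4 CPM at 100 µM (1.67-fold lower, 0.0417; SD, n = 3 each). CLOCK, its relative, had 35.5 ± 4.91 CPM in control, 20.1 ± 0.665 CPM at 50 µM (1.76-fold lower, edgeR adjusted p = 0.00653) and 22.3 ± 2.09 CPM at 100 µM (1.59-fold lower, 0.00503). The CLOCK call at 100 µM was kept without each library in turn, and that at 50 µM was lost without 50 µM replicate 3 (edgeR adjusted p = 0.0539). Those of NPAS2 were lost at 100 µM without control replicate 2 or 3, any one 50 µM library or 100 µM replicate 2, and at 50 µM without control replicate 2 or 3 or any one 50 µM library.

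The EGLN enzymes use 2-oxoglutarate and are inhibited by succinate and fumarate, and of 17 enzymes that make or use these acids 1 rose and 2 fell at each dose against control by edgeR. That is near the share of all genes that rose and fell (5.28% and 6.31% at 50 µM, 10.7% and 10.3% at 100 µM), so the genes below are single genes and not a result about these enzymes as a group. IDH2, the mitochondrial NADP isocitrate dehydrogenase that makes 2-oxoglutarate, rose at both doses, with 78.1 ± 7.20 CPM in control, 132 ± 3.89 CPM at 50 µM (1.69-fold, edgeR adjusted p = 0.00253) and 146 ± 5.14 CPM at 100 µM (1.87-fold, 0.000308). FH, which removes fumarate, fell 1.44-fold at 100 µM (73.6 ± 2.11 against 106 ± 10.6 CPM, edgeR adjusted p = 0.00329). The IDH2 calls and this FH call were kept without each library in turn. FH was also 1.29-fold lower at 100 µM than at 50 µM (edgeR adjusted p = 0.0430), a call kept without control replicate 1 or 100 µM replicate 3 and lost without any other library. OGDH and SDHA fell at 50 µM (log2 fold changes of -0.66 and -0.27) and IDH3A at 100 µM (1.34-fold lower), all in edgeR, and each of these was lost without control replicate 2 or 3 or any one 50 µM library. The SDHA call was also lost without 100 µM replicate 1 or 2, and that of IDH3A without 100 µM replicate 1 or 3. These are RNA levels; the acids themselves were not measured.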
